A study of Homo sapiens with 2 samples.

Results

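Mitochondrial ribosomal protein genes were taken as the probe sets whose 1 platform gene symbol begins with MRPL or MRPS and a digit, and each gene was represented by its brightest probe set. They numbered 51 of the 11963 genes named on the array, with 31 MRPL symbols and 20 MRPS symbols on 64 probe sets. RNA came from L-428, an established Hodgkin's lymphoma cell line, and was hybridised to 2 Affymetrix HG_U133A microarrays. The first array held RNA of cells transfected with pcDNA6.2-GW/EmGFP-miR-DUSP5, a vector for an artificial microRNA against the phosphatase DUSP5, and is called the knock-down array. The second held RNA of cells transfected with pcDNA6.2-GW/EmGFP-miR-neg and is called the control array. Both conditions thus share the cell line, the vector backbone and the transfection, and the share of cells that took up a vector was not given in the sources used here. With 1 array per condition, no difference below could be checked in a replicate, and p-values are not given.

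The mitoribosome translates the few mRNAs encoded by mitochondrial DNA, which specify core subunits of the respiratory chain. Its proteins are encoded in the nucleus, made on cytosolic ribosomes and imported. The small subunit decodes the mRNA, and the large subunit joins amino acids and releases the growing chain through a tunnel towards the inner membrane. Many members descend from bacterial ribosomal proteins, while others are found only in mitochondria. In bulk RNA a changed signal can come from fewer cells that express a gene or from less RNA per cell, and these cannot be told apart.

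A gene was called measured where the mean of its signals on both arrays was at least 200, and signals are the deposited intensities without further scaling. DUSP5 itself had a signal of 368 on the knock-down array and 628 on the control array, a log2 ratio of -0.77. The median signal over all probe sets was 164 on the knock-down array and 161 on the control array. All 7 listed Hodgkin and Reed-Sternberg cell markers were measured, and each had a log2 ratio above 0 (median 0.49). Of all 6301 measured genes, 3176 lay above 0, and those with signals above 3000 had a median of 0.21. The median signal of the markers was 4521. Their median log2 ratio was 0.24 under quantile normalization and 0.26 after subtraction of a lowess fit on signal. TNFRSF8, which encodes CD30, had signals of 3618 on the knock-down array and 1724 on the control array. None of 5 B cell markers and none of 7 T cell and monocyte markers was measured. Their part in the results was not tested. The error given after a log2 ratio is the SD that probe sets of 1 gene showed among themselves at like signal, which was 0.41 at signals of 200 to 500, 0.36 at 500 to 1000, 0.30 at 1000 to 3000 and 0.26 above 3000. Differences between cultures are not part of this error.

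Of the 51 genes, 47 were measured, with mean signals from 308 to 3791. More of them were higher than lower on the knock-down array. A log2 ratio of knock-down over control of at least 1.5-fold was found upwards for 11 genes (23.4% of 47), where 15.6% of all 6301 measured genes were as high, and downwards for 4 genes (8.51%), where 19.0% of all measured genes were as low. At 2-fold, 5 genes were higher, beside 4.38% of all measured genes, and 0 were lower, beside 7.30%. The other 32 genes lay within 1.5-fold. The median log2 ratio was 0.24 (probe SE 0.06), against 0.01 over all measured genes, and 30 genes lay above 0 and 17 below. Rescaling by a constant moved the members and all genes alike. The members' median was 0.12 with log2 ratios centred on the median ratio of all probe sets, -0.059 relative to the hybridisation controls and -0.88 relative to GAPDH, whose own log2 ratio was 1.12, and the median of all measured genes was -0.12, -0.29 and -1.11 under the same scalings. With _s_at and _x_at probe sets left out, whose probes may match more than 1 transcript, the median turned to -0.021 over 21 members, with 5 higher and 4 lower, and that of all measured genes was -0.04.

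**Figure D1:**
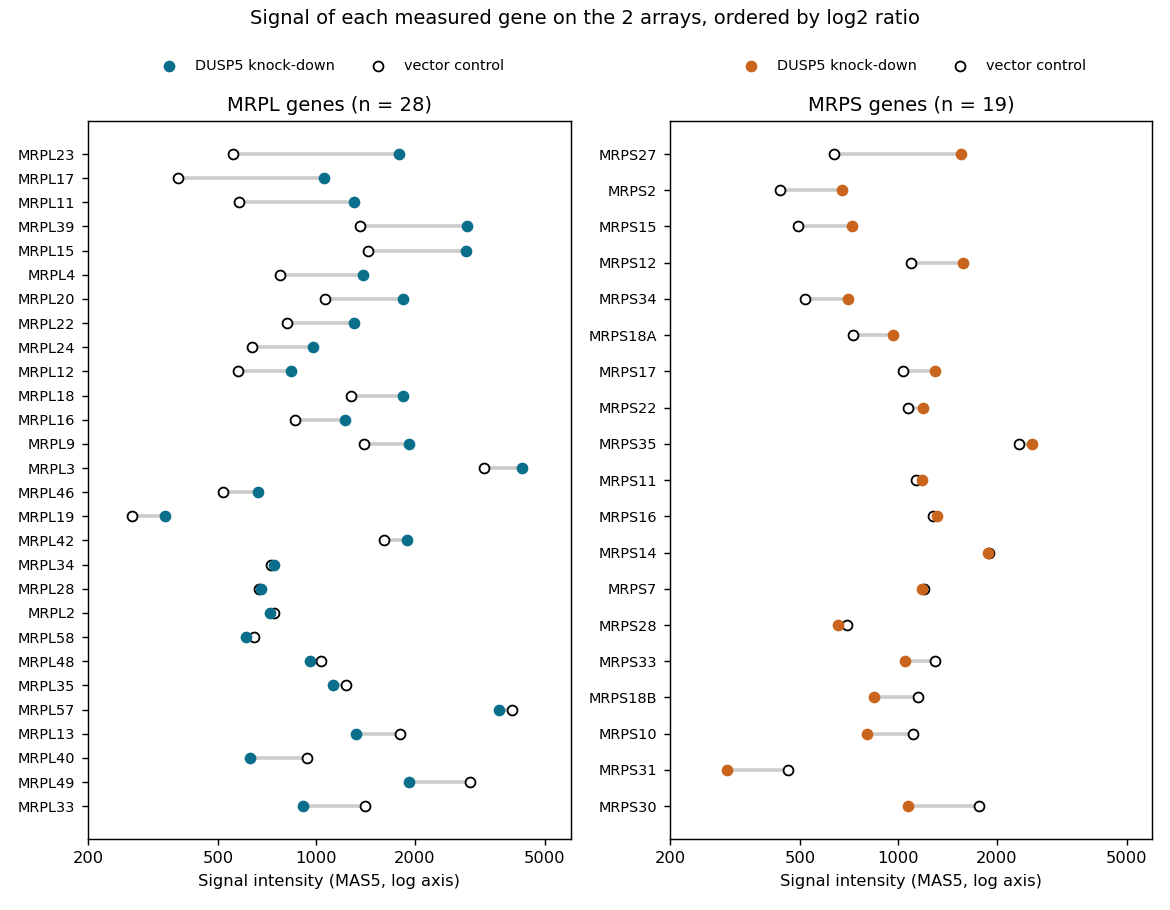
Signal intensity of each measured gene on the knock-down and the control array (log scale). MRPL23, MRPL17 and MRPS27 show the widest gap upwards and MRPS30 the widest gap downwards, at 1072.5 on the knock-down array and 1769 on the control array.

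The large-subunit symbols carried more of the higher genes. Among 28 measured MRPL genes, 9 were at least 1.5-fold higher (32.1%) and 2 lower (7.14%), where 13.6% and 19.0% of the 1400 picks of genes nearest in signal to them were (50 per gene, with repeats). Outside the group at the end of the exit tunnel, described below, 4 of 23 MRPL genes were higher (17.4%) and 2 lower (8.70%). Among 19 measured MRPS genes, 2 were higher and 2 lower (10.5% each), beside 13.8% and 19.9% of the genes nearest in signal to them. The median log2 ratio was 0.37 (probe SE 0.08) for MRPL genes and 0.06 (probe SE 0.10) for MRPS genes. Their difference was 0.31 (probe SE 0.12). The probe SE leaves out the spread between genes, whose SD was 0.61 among MRPL genes and 0.50 among MRPS genes. The genes nearest in signal had medians of -0.03 for MRPL genes and -0.02 for MRPS genes. Of the MRPL genes, 18 of 28 lay above the median of their own nearest genes, and of the MRPS genes 11 of 19 did. The ranges overlapped over most of their length, since 2 MRPL genes lay above the highest MRPS gene and 0 lay below the lowest. The difference was 0.17 (probe SE 0.19) without _s_at and _x_at probe sets and 0.24 to 0.31 in the other settings. MRPS18A and MRPS30 carry small-subunit names but are built into the large subunit, and moving them left both medians as they were.

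**Figure D2:**
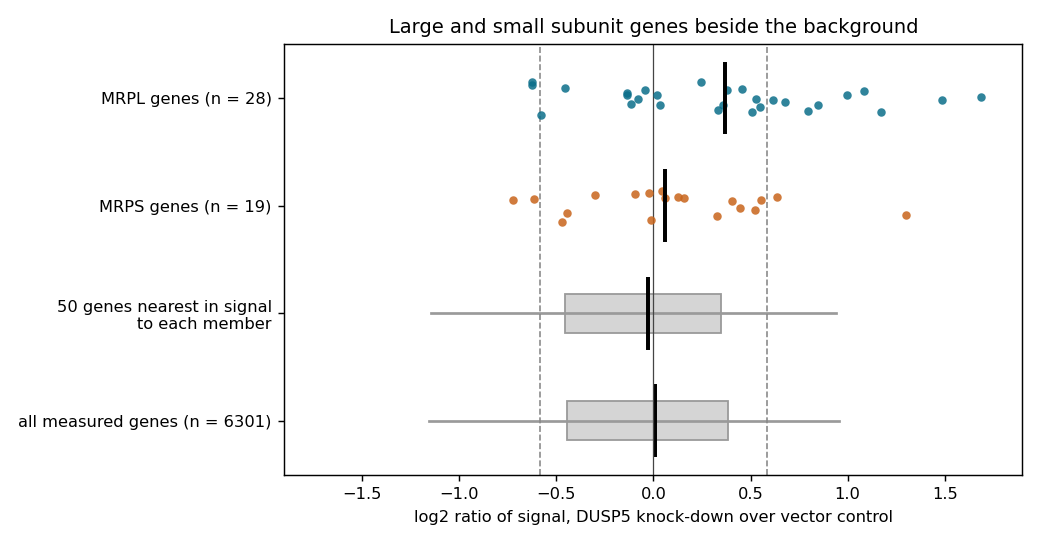
Log2 ratio of each measured MRPL and MRPS gene, with black bars at the medians of 0.37 and 0.06, beside the genes nearest in signal and all measured genes (box, quartiles; whiskers, 5th to 95th percentile; dashed lines, 1.5-fold). Relative to GAPDH both medians were below 0, at -0.75 and -1.06, and relative to the hybridisation controls they were 0.067 and -0.24, where all measured genes had medians of -1.11 and -0.29.

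Upstream DNA of 4 members is shown because these had the highest and the lowest log2 ratios among measured genes whose 150 bases before the RefSeq start hold a searched motif. The stretches are from GRCh38.p14, read 5′ to 3′ along the gene's strand and ending at the base before the start, and capitals mark the motif. The capitals are NRF-1 sites in MRPL17 (log2 ratio 1.48), whose first run holds overlapping matches on both strands, and ETS cores in MRPL20 (0.80), MRPS31 (-0.62) and MRPL33 (-0.62).
MRPL17, chr11:6683341-6683490, minus strand: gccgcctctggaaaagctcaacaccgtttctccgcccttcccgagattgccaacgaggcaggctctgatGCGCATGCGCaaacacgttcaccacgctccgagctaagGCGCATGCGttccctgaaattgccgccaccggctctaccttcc
MRPL20, chr1:1407294-1407443, minus strand: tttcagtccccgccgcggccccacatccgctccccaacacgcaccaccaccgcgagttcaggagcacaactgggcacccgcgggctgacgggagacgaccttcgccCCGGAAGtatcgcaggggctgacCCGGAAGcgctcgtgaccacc
MRPS31, chr13:40771191-40771340, minus strand: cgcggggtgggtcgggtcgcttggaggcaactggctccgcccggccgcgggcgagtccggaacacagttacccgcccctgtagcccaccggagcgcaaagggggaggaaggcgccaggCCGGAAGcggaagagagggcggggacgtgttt
MRPL33, chr2:27771569-27771718, plus strand: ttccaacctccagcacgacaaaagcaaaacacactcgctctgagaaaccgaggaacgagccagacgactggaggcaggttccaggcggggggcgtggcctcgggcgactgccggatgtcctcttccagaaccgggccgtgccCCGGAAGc

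NRF-1 and the ETS factor GABP are known activators of nuclear genes for mitochondria, and YY1 and E-box factors such as MYC bind many ribosome-related promoters. The windows ran from 250 bases before to 50 after the start, both strands were searched, and 45 of the 51 members had an entry; MRPL2, MRPL13, MRPL15, MRPL23, MRPL35 and MRPS28 did not. The ETS core CCGGAAG was found in 18 of 45 members (40.0%), in 14.2% of 15842 coding promoters and in 21.5% of the promoters of measured genes. The YY1 motif AAGATGGCG was in 8 members (17.8%), beside 2.74% of all promoters and 5.17% of those of measured genes. The NRF-1 motif GCGCATGCG was in 3 members (6.67%), beside 2.76% and 4.34%. The E-box CACGTG was in 3 members (6.67%), beside 8.88% and 11%. An ETS core stood in 9 of 26 MRPL and 9 of 19 MRPS promoters. Measured members with an ETS core had a median log2 ratio of 0.03 (16 genes, 1 higher and 2 lower), and those without had 0.36 (25 genes, 8 higher and 2 lower). Over all measured genes the medians were 0.04 with and 0.0021 without the core, with 14.9% and 16.1% of genes higher. With an NRF-1 motif the median was 1.08 (2 genes, both higher), against 0.24 without (39 genes, 7 higher and 4 lower). Over all measured genes the share higher went the other way, at 11.3% with and 16.0% without this motif. The medians there were 0.08 and 0.01. It was 0.24 with a YY1 motif (7 genes) and 0.33 without (34 genes), and 0.028 with an E-box (2 genes) and 0.32 without (39 genes). These matches are descriptions of letters and not of bound sites.

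The proteins around the end of the exit tunnel, where the chain leaves the large subunit, were the group with the highest median. All 5 measured members of the group were at least 1.5-fold higher, beside 15.6% of all measured genes, and their median log2 ratio was 1.08. The 3 highest were read by _s_at probe sets, with a median of 1.48, and the 2 read by _at probe sets had a median of 0.65. MRPL23, the uL23 homologue at the tunnel end, had a signal of 1790.5 on the knock-down array and 557 on the control array, a log2 ratio of 1.69 (SD 0.30). MRPL17, the bL17 homologue, had 1052 and 376, a log2 ratio of 1.48 (SD 0.36). None of the 50 genes nearest in signal to MRPL23, and none of those nearest to MRPL17, was as high. MRPL39, a mitochondria-specific protein, had 2886 on the knock-down array and 1363 on the control array, a log2 ratio of 1.08 (SD 0.30).

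The other 2 members of the exit group were closer to the limit of 1.5-fold. MRPL22, the uL22 homologue that lines the tunnel, had signals of 1301 on the knock-down array and 813 on the control array (0.68, SD 0.30), and MRPL24, the uL24 homologue, had 974 and 635 (0.62, SD 0.36). MRPL44 was under the signal filter. The group kept 3 of 5 genes over 1.5-fold after centring and relative to the hybridisation controls, and 0 relative to GAPDH, with a median of -0.04 where all measured genes had -1.11. The other 23 MRPL genes had a median of 0.24, with 4 higher (17.4%) and 2 lower (8.70%). Over all measured genes 15.6% were higher and 19.0% lower, so the share higher was near that of all genes. The group is small, and which genes stand in it was fixed from structure with earlier results of these data known.

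The stalk recruits translation factors to the large subunit. MRPL11 at its base had signals of 1307 on the knock-down array and 580.1 on the control array, a log2 ratio of 1.17 (SD 0.36). MRPL12, the stalk protein, had 839 and 574, a log2 ratio of 0.55 (SD 0.36). Both lay above 0, and MRPL11 alone passed 1.5-fold.

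Homologues of bacterial large-subunit proteins were mostly above 0. Of 20 measured, 8 were higher (40%) and 1 lower (5%), beside 15.6% and 19.0% of all measured genes, with a median log2 ratio of 0.52, and of the 16 outside the exit group 4 were higher and 1 lower, with a median of 0.42. MRPL15, the uL15 homologue, had signals of 2860.2 on the knock-down array and 1434 on the control array (1.0, SD 0.30). MRPL4, the uL4 homologue whose bacterial relative reaches into the tunnel, had 1388 and 772 (0.85, SD 0.30). MRPL20, the bL20 homologue, had 1845 and 1061 (0.80, SD 0.30). MRPL33, the bL33 homologue, went the other way, with 911 on the knock-down array and 1404 on the control array (-0.62, SD 0.30). MRPL13, the uL13 homologue, also lay below 0, with 1320 and 1808 (-0.45, SD 0.30). MRPL35, the bL35 homologue, had 1125 and 1235 (-0.13, SD 0.30). The brightest of the homologues, MRPL3, had signals of 4251 and 3269, a log2 ratio of 0.38 (SD 0.26).

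Of 7 measured mitochondria-specific proteins of the large subunit, MRPL39 was higher and MRPL49 lower (14.3% each), near the 15.6% and 19.0% of all measured genes. The median log2 ratio was -0.11, at 0.30 for the 4 genes read by _s_at or _x_at probe sets and -0.58 for the 3 read by _at probe sets. The difference from the homologues was not tested. MRPL49 had signals of 1920.1 on the knock-down array and 2956 on the control array (-0.62, SD 0.30). MRPL40, a protein of the central protuberance, had 626 and 936 (-0.58, SD 0.36), just inside 1.5-fold. MRPL57, the brightest member of all, had 3613 and 3969.5 (-0.14, SD 0.26). In the central protuberance, which faces the small subunit, 0 of the 4 measured genes passed 1.5-fold and the median was 0.12. MRPL18, the uL18 homologue, had 1835 on the knock-down array and 1274 on the control array (0.53, SD 0.30), while MRPL48 had 956 and 1034 (-0.11, SD 0.36). MRPL58, a peptide release factor homologue built into the large subunit, had 608 and 643 (-0.08, SD 0.36).

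Small-subunit homologues of bacterial proteins had a median log2 ratio of 0.05 over 10 genes, of which 1 was higher and 0 lower, beside 15.6% and 19.0% of all measured genes. After quantile normalization 3 of the 10 were higher, with a median of 0.12, and after the lowess fit on signal 2 were. MRPS2, the uS2 homologue, was that gene, with signals of 675 on the knock-down array and 434 on the control array (0.64, SD 0.36). MRPS15, the uS15 homologue, had 723 and 493 (0.55, SD 0.36). MRPS12, the uS12 homologue of the decoding region, had 1578 and 1097 (0.53, SD 0.30). MRPS10, the uS10 homologue, had the lowest log2 ratio of these, with 801 on the knock-down array and 1109 on the control array (-0.47, SD 0.36).

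Mitochondria-specific small-subunit proteins ranged from -0.62 to 1.3, with a median of 0.13 over 7 genes. Their SD over genes was 0.65, against 0.35 for the small-subunit homologues and 0.67 for all measured genes. Of the 7, 1 was higher and 1 lower (14.3% each), near the 15.6% and 19.0% of all measured genes. MRPS27, a pentatricopeptide-repeat protein, had signals of 1559.7 on the knock-down array and 634 on the control array, a log2 ratio of 1.3 (SD 0.30), and 1 of its 50 nearest genes was as high. MRPS31 was at the other end, with 299.6 and 459 (-0.62, SD 0.41). MRPS35 had 2563 and 2347 (0.13, SD 0.30), and MRPS33 had 1051 and 1295 (-0.30, SD 0.30). MRPS18B, grouped with these although related to bacterial bS18, had 845 and 1153 (-0.45, SD 0.36). MRPS30, built into the large subunit, had the lowest log2 ratio of all members, with 1072.5 on the knock-down array and 1769 on the control array (-0.72, SD 0.30).

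**Figure D3:**
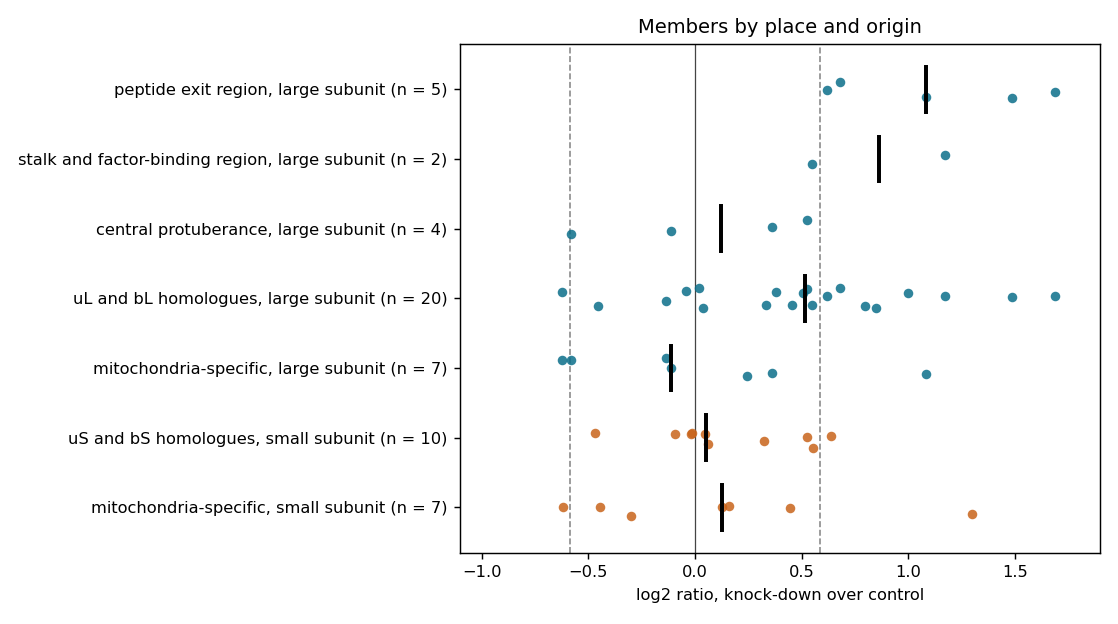
Log2 ratio of each measured gene by its place in the mitoribosome (points, genes, some in more than 1 group; black bars, group medians; dashed lines, 1.5-fold). The exit group lies highest, at a median of 1.08 as deposited and -0.04 relative to GAPDH (all measured genes, -1.11), and the mitochondria-specific large-subunit genes have a median of -0.11 as deposited.

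The measured members not given by value here, MRPL2, MRPL16, MRPL19, MRPL28, MRPL34, MRPL42, MRPS7, MRPS14, MRPS16, MRPS17, MRPS22, MRPS28 and MRPS34, had log2 ratios between -0.09 for MRPS28 and 0.51 for MRPL16, all within 1.5-fold.

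The 4 members under the signal filter were dimmer on the control array in each case. MRPL41 had signals of 50.9 on the knock-down array and 15.5 on the control array, MRPL52 had 173 and 87.5, MRPL44 had 163 and 131, and MRPS18C had 81.5 and 56.6. At such signals the SD between probe sets was 0.73 or 1.19, so that no fold is given.

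Probe sets of the same gene limit how far single values can be read. Of 6 members with several measured probe sets, 4 had ratios of 1 sign. MRPL9, the bL9 homologue, had log2 ratios of 0.46 and 0.67, with signals of 1923 on the knock-down array and 1402 on the control array at the brighter probe set, and MRPS18B had -0.45 and -0.09. MRPS30 had -0.72 at its brighter and -0.19 at its dimmer probe set, and MRPS31 had -0.62 and -0.03. The signs were opposite for MRPL57, at -0.14 and 0.11, and for MRPS18A, at 0.41 (965 on the knock-down array and 728 on the control array) and -0.13. The low values of MRPS30 and MRPS31 thus rest on 1 probe set each.

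Medians were higher by _s_at or _x_at probe sets than by _at probe sets among MRPL genes, but not among MRPS genes. Of the 47 measured members, 28 were read by _s_at or _x_at probe sets, with a median log2 ratio of 0.28. Of these, 6 were higher (21.4%) and 0 lower. The 19 read by _at probe sets had a median of 0.13, with 5 higher (26.3%) and 4 lower (21.1%). For MRPL genes the medians were 0.48 and 0.15, and for MRPS genes 0.05 and 0.13. Over all measured genes the medians were 0.04 and -0.03. There 16.1% were higher and 17.0% lower by _s_at or _x_at probe sets, and 15.0% and 20.9% by _at probe sets. The part of probe type in the result was not tested.

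Mean signal over both arrays moved little with the ratio among the members. Pearson's r between log2 ratio and mean log2 signal was -0.05 and Spearman's rho was -0.08 over 47 genes, which share both arrays. With the log2 signal on the control array alone, by which the ratio divides, r was -0.40, against -0.13 over all measured genes. At signals of 500 to 1000 the median log2 ratio was 0.20 over 18 members, against -0.04 over all measured genes, and at 1000 to 3000 it was 0.24 over 25 members, against -0.04.

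**Figure D4:**
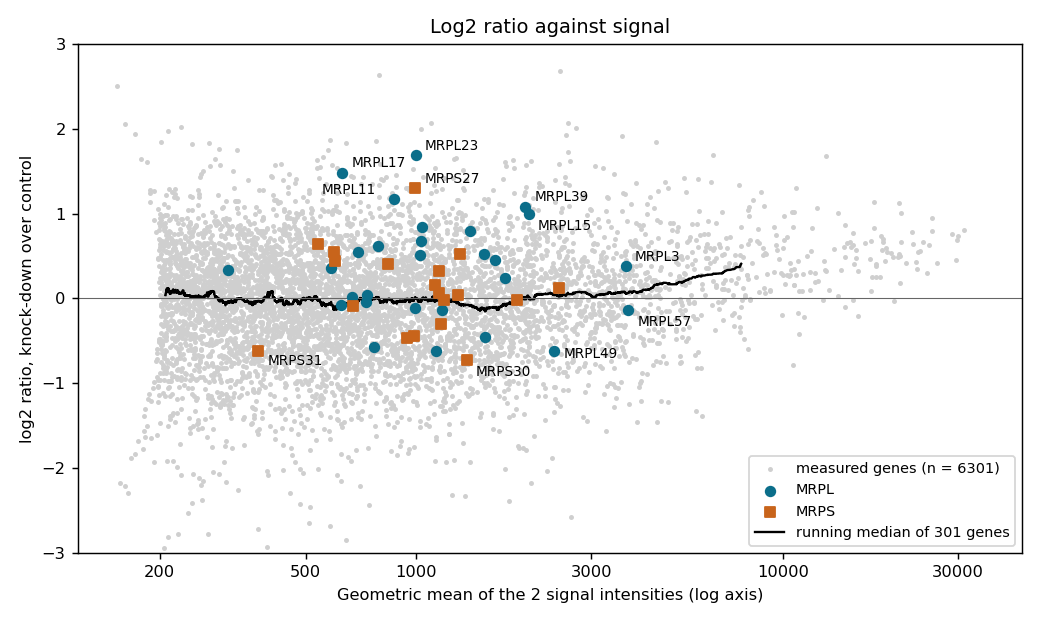
Log2 ratio of knock-down over control against the geometric mean of the signals on both arrays (log scale) for all measured genes and for the 47 members, with a running median over genes of like signal. The members lie on both sides of it, from -0.72 to 1.69, and 7 genes beyond a log2 ratio of 3 in size fall outside the axis.

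The mitoribosomal proteins known under other symbols that are named here lay above 0, as did 3176 of all 6301 measured genes. DAP3, a GTP-binding protein of the small subunit, had signals of 2299 on the knock-down array and 1023 on the control array (1.17, SD 0.30). GADD45GIP1, a large-subunit protein, had 288 and 191 (0.59, SD 0.41), and its dimmer probe set, under the signal filter, had -0.38. PTCD3, a pentatricopeptide-repeat protein of the small subunit, had 1597 and 1425 (0.16, SD 0.30), so that its sign is not settled.

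Factors that work with the mitoribosome were set beside it, and each count below stands against 15.6% higher and 19.0% lower over all measured genes. Of 5 measured translation factors, 2 were higher (40%) and 0 lower, with a median log2 ratio of 0.25. TUFM, the elongation factor that brings aminoacyl-tRNA, had signals of 6388 on the knock-down array and 2487 on the control array (1.36), and TSFM, its exchange factor, had 1561 and 828 (0.92). MTIF2, an initiation factor, had a log2 ratio of 0.04. Of 14 genes for assembly and rRNA modification, 5 were higher (35.7%) and 1 lower (7.14%), with a median of 0.45. RBFA, a small-subunit assembly factor, had a log2 ratio of 0.99, FASTKD2, an RNA-binding assembly factor, had 0.85, and MTERF3 had -0.70.

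Genes for mitochondrial DNA upkeep and transcription were more often above 0 (7 genes) than below (3 genes). Of 10 measured, 3 were higher (30%) and 1 lower (10%), with a median log2 ratio of 0.38. POLG, the catalytic subunit of the mitochondrial DNA polymerase, had 0.95. TFAM, which packages mitochondrial DNA and activates its promoters, had signals of 1024 on the knock-down array and 1598 on the control array (-0.64), and its other measured probe sets had log2 ratios of -0.44 and -0.07. Of 10 measured regulators of nuclear genes for mitochondria, 3 were higher (30%) and 2 lower (20%), with a median of 0.22. ESRRA, a nuclear receptor, had 691 and 344 (1.0), MYC had a log2 ratio of 0.60, and NRF1, the factor whose motif was searched above, had 146 and 320 (-1.13) at its brightest probe set. A second measured probe set of NRF1 went the other way, with 227 on the knock-down array and 188 on the control array (0.27), so that its direction is not settled. GABPB1, a subunit of GABP, had 744 on the knock-down array and 1434 on the control array (-0.95).

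Among 21 measured genes for protein import, 8 were higher (38.1%) and 3 lower (14.3%), with a median log2 ratio of 0.40. PMPCB, a subunit of the mitochondrial processing peptidase, had signals of 4176 on the knock-down array and 1554 on the control array (1.43), and TIMM22, the channel of the carrier translocase, had a log2 ratio of -0.92. Nuclear-encoded subunits of the respiratory chain and ATP synthase had 26 of 66 genes higher (39.4%) and 2 lower (3.03%), with a median of 0.40. Under quantile normalization, and likewise under subtraction of a lowess fit on signal, 14 of these were higher (21.2%), with medians of 0.33 and 0.30, and after centring 13 were. Cytosolic ribosomal proteins had 15 of 53 genes higher (28.3%) and 1 lower (1.89%), with a median of 0.47. Under quantile normalization, and likewise under the lowess fit, 2 of 53 were higher, with medians of -0.03 and 0.02, and after centring 5 were. The members kept medians of 0.29 and 0.26 under the same settings. Relative to GAPDH these list medians lay between -0.90 and -0.65, where the median of all measured genes was -1.11.

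**Figure D5:**
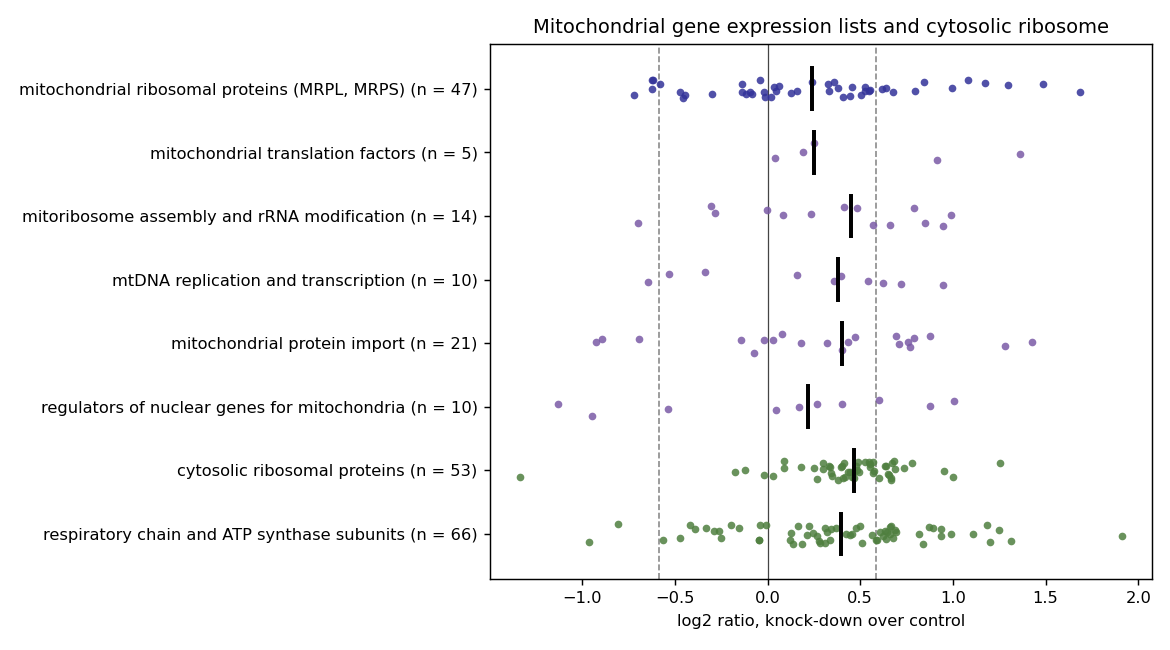
Log2 ratios of the members and of the lists set beside them (points, measured genes; dashed lines, 1.5-fold), with black bars at list medians of 0.24 for the members, 0.40 for respiratory chain subunits and 0.47 for cytosolic ribosomal proteins as deposited. Relative to GAPDH these medians lay below 0, as did that of all measured genes at -1.11.

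Some members share an upstream region with a gene on the other strand. With up to 1000 bases between starts, 11 of 45 members had such a neighbour (24.4%), beside 10.3% of all coding promoters. Both genes were measured in 4 separate pairs, and 3 of these had log2 ratios of the same sign. Of all measured genes, 3176 lay above 0 and 3125 below. MRPL46 had 0.36 (SD 0.36) and MRPS11, 320 bases away, had 0.06 (SD 0.30), so that the sign of this pair is not settled. MRPL40 had -0.58 and HIRA, a histone chaperone gene, had -1.54, and MRPS18B had -0.45 and PPP1R10 had -0.81. MRPL49 had -0.62 while FAU, which encodes a cytosolic ribosomal protein and starts 49 bases away, had 0.31.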

How the data were processed

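The authors scanned 1 HG_U133A array per condition and computed signals with the MicroarraySuite algorithm in Expression Console, scaled to a common target. The submitters' processing notes name MAS5. The deposited values are linear signal intensities, and 22283 probe sets were given on each array, with a mean without the outer 2% of 500.2 on the knock-down and 500.1 on the control array. The number of arrays limits the precision. Symbols came from the platform annotation, all 51 members were found in RefSeq (GRCh38.p14) under the same symbol, and RefSeq members with no such probe set were not analysed here.

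The log2 ratio of knock-down over control was taken per probe set. A gene counted as measured from a mean signal of 200 upwards, and the size rule was 1.5-fold. For each member, the 50 measured genes nearest in mean log2 signal served as background. The probe SE of a median was taken from the probe SDs and the number of genes, and leaves out the spread between genes. The 12 highest and 12 lowest members were to be named with both signals, as were members with several measured probe sets and up to 3 highest and 3 lowest genes of each list. Promoters were shown for the highest and lowest members with a motif, limited to matches in the 150 bases before the start after the matches had been seen. The members and lists were chosen with earlier results of these data known. The alternatives were quantile normalization, centring of log2 ratios on the median ratio of all probe sets other than controls, 32 added to each signal, subtraction of a lowess fit (span 0.3), a filter at 500 or none, the mean of all probe sets, only _at probe sets, subunits by place in the ribosome and a 2-fold rule. Scaling to 18 hybridisation controls and to GAPDH was added after seeing the data. The steps were tested on simulated data. The software was statsmodels 0.14.6, scipy 1.17.1, numpy 2.4.6, pandas 2.3.3 and matplotlib 3.10.9 under Python 3.11.15.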

Additional observations from a re-analysis of the deposited data

How the results depend on the processing

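No paired analysis was possible because the study has 1 array per condition. Against 11 genes higher and 4 lower, quantile normalization gave 14 and 2, the lowess fit 13 and 2, centring 8 and 6, and a 2-fold rule 5 and 0, while the mean of all probe sets gave 2 lower. All 11 higher genes remained under quantile normalization, the lowess fit, 32 added to each signal, a mean signal of at least 500 and the mean of all probe sets, and 8 remained after centring, without MRPL22, MRPL24 and MRPS2. Centring moved the median of all measured genes to -0.12 and the medians to 0.12 for all members, 0.24 for MRPL genes and -0.064 for MRPS genes. Without a signal filter the median of all members was 0.32. With _s_at and _x_at left out, 21 members had a median of -0.021 and MRPL genes had 0.15. The difference between the subunits was then 0.17 (probe SE 0.19), and 5 genes were higher. Among settings added after seeing the data, ratios relative to the hybridisation controls moved the median of all measured genes to -0.29 and gave medians of -0.059 for all members, 0.067 for MRPL and -0.24 for MRPS genes, with 6 higher and 9 lower. Relative to GAPDH the median of all measured genes was -1.11 and the medians were -0.88, -0.75 and -1.06, with 0 higher and 34 lower. For single genes, the ratio of MRPL20 was 1.15 and that of MRPS11 0.48 with the mean of all probe sets, and that of MRPS18A -0.13 without _s_at and _x_at. The dimmer probe sets of MRPL20 (13.3 on the knock-down array and 4.65 on the control array) and MRPS11 (109 and 58.6) were under the signal filter. The causes of these shifts were not tested. Low signals limit the 4 genes under the filter, where the SD between probe sets was 0.73 or more.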
